A study of Homo sapiens with 171 samples.

Results

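Interleukin 1 biology was followed through 9 genes in ovarian cancer cell lines with and without cisplatin. They were the ligand genes IL1A, IL1B, IL18 and IL33, the receptor antagonist gene IL1RN, the receptor chain genes IL1R1, IL1RAP and IL1RL1, and the decoy receptor gene IL1R2. The genes were chosen by name, and each was read by 1 probe set that names that gene alone. They are 9 of the 18417 genes tested, out of 33297 probe sets on the array.

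The series covered 46 established ovarian cancer cell lines, each grown untreated and with cisplatin, a platinum drug that damages DNA, for 48 h. Each line received its own growth-inhibiting concentration, so the dose differed between lines. The labels name no engineered allele in any line, and all samples are lines in culture. Batches 1 to 3 held 18 lines with 3 cultures in either arm (2 treated ones in HeyA8), and batches 4 and 5 gave 28 further lines with 1 untreated and 1 treated culture each. OVCA433 has a pair of cultures in batch 4 besides those in batch 2. Batch 5 also holds 1 untreated culture each of SKOV-3 and PA-1, which have no treated culture in that batch and enter no change; the SKOV-3 pair is in batch 4.

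Interleukin 1 alpha and beta bind the same receptor, IL1R1, which recruits the accessory chain IL1RAP and signals through MYD88 to NF-kB and mitogen-activated kinases. The receptor antagonist occupies IL1R1 without signalling, and IL1R2 binds the ligand but lacks a signalling domain. Interleukin 33 uses the chain ST2, encoded by IL1RL1, together with IL1RAP, while interleukin 18 has a receptor pair of its own. Interleukin 1 beta and interleukin 18 are made as precursors that inflammatory caspases cut, so messenger RNA does not show how much active cytokine a cell releases. In carcinomas these genes are known as links between tumour cells and inflammation.

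Start regions of IL1A, IL1B, IL1RN and IL1RL1 are shown. The reason is that FOSL1, a subunit of the transcription factor AP-1, had an untreated pattern close to that of IL1A and IL1B. FOSL1 was not among the 3 genes closest to IL1RN or IL1RL1. No motif was searched for ETS1, which was as close to IL1A. Promoters of 8 members, all but IL18, were matched in a RefSeq table of build GRCh38.p14, which held 17 windows for them. Each run below is the 250 bases before a start site, 5′ to 3′, with matches to the AP-1 motif TGANTCA in capitals.
IL1A, chr2:112784401-112784650, minus strand: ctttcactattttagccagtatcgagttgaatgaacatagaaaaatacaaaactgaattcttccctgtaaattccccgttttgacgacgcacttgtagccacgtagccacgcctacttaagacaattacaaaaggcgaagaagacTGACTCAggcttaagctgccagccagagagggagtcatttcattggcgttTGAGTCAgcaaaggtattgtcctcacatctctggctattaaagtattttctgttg
IL1B, chr2:112836780-112837029, minus strand: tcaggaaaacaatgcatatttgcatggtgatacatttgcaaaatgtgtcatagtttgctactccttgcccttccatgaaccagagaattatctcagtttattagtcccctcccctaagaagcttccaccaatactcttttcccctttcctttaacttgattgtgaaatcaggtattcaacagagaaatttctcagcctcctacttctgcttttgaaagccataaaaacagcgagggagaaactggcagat
IL1RN, chr2:113117721-113117970, plus strand: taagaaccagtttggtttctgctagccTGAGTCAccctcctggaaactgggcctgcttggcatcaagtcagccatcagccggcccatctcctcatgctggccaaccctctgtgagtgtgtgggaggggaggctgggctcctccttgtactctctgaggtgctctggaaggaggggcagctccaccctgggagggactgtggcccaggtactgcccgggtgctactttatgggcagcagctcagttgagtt
IL1RL1, chr2:102337007-102337256, plus strand: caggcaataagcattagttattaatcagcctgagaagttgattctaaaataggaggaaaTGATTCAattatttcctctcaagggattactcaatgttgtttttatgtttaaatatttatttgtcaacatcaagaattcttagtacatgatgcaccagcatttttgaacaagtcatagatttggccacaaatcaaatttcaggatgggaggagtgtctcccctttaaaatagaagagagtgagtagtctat
The IL1A window shown held 2 matches, which begin 105 and 55 bases before the start site. The IL1RN window shown held 1, beginning 223 bases before its start site, and the IL1RL1 window shown held 1, beginning 191 bases before its own. For IL1RN and IL1RL1 the window printed is the one with the motif. Their other windows, and those of IL33, IL1R1, IL1R2 and IL1RAP, held no match to it and are not shown. In all, 4 of the 17 windows held the motif on either strand, in 3 of 8 genes, against 6.57% of 35116 windows of this length over all genes; the IL1A windows are 2 overlapping ones that share a match. The IL1B window held no match, which says only that these letters are not in it. The kappaB consensus was found in 1 window, of IL1R2 (9.96% of all windows), and the TATA box letters TATAAA were found in 5 windows of 5 genes (10.7% of all windows). The runs shown held neither the kappaB consensus nor TATAAA, so no motif overlaps another in them, and a match is a description of the sequence, not a binding site.

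Values are log2 array intensities, and the batches were on 2 scales. The upper quartile of an array's gene values was at 8.16 to 8.47 in batches 1 to 3, 6.67 to 7.03 in batch 4 and 5.87 to 6.92 in batch 5. Levels were therefore compared within a batch. The arrays of batch 5 also differed among themselves, which limits levels and changes read from its single cultures. Among 8 genes that mark ovarian carcinoma, the medians over the cultures of batches 1 to 3 were high for the keratins KRT8 (12.2) and KRT18 (12.3) and intermediate for PAX8 (7.64) and EPCAM (7.51). Those of MSLN (6.20), WT1 (5.98), FOLR1 (5.23) and MUC16 (5.10) were lower, with FOLR1 and MUC16 near the 5.25 of the monocyte gene CD14. In TYK-nu the endothelial genes PECAM1 (11.96 to 12.34) and TEK (9.69 to 10.27) were above those of every other replicated line. CDH5, TIE1 and KDR were also highest there among these lines. VWF and CLDN5, by contrast, reached at most 5.56 and 6.72 in any culture of batches 1 to 3. EPCAM was at 3.16 to 3.97 in TYK-nu, but the keratin KRT18 was at 10.57 to 11.14. The leukocyte gene PTPRC was at 9.04 to 9.51 in all 6 cultures of OVCAR-10, against at most 4.56 in the other replicated lines. LYZ was at 11.51 to 11.59 in OV90. Other leukocyte genes did not follow: CD14, CSF1R, ITGAM and CD3E reached at most 5.82, 5.79, 5.27 and 5.18 in any culture of batches 1 to 3. CD68 reached 11.1 and NCAM1 8.43 in these batches. The summed level of 14 leukocyte genes ran from 61.5 to 76.1 in untreated and 61.4 to 76.8 in treated cultures of batches 1 to 3, and from 46.4 to 56.6 and 48.5 to 61.3 in batches 4 and 5. Of the 14, 2, LYZ and CD68, rose over all lines while NCAM1 fell, beside 4.98% of all genes that rose and 4.72% that fell. Of 15 epithelial genes 0 rose and 3 fell, KRT19 (-0.23), CLDN3 (-0.19) and ESRP2 (-0.15). The sum of 8 endothelial genes ran from 37.2 to 75.5 in untreated and 37.3 to 74.7 in treated cultures of batches 1 to 3, and 0 of the 8 passed by limma, also at an unadjusted p under 0.05 (0 of 8). The part of these markers in the results was not tested.

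Among 107 cultures of the replicated lines, 3 stood apart by their highest correlation over all genes with another culture of their own line. It was 0.959 for treated culture 1 of OVCAR-10, 0.982 for treated culture 3 of OVCA420 and 0.983 for untreated culture 1 of A2008, against at least 0.989 for the rest. Treated culture 1 of OVCAR-10 correlated more closely with a culture of DOV13B (0.961) than with any of its own line. In A2008, untreated culture 3 and treated culture 1 were each other's closest match (0.991). Changes within lines that turn on these cultures are given with and without them. For changes within a line, p-values rest on a spread between cultures that is pooled per gene over all replicated lines and arms. The labels only number these cultures, so the spread may be technical. In bulk cultures, fewer cells that express a gene and less RNA per cell cannot be told apart.

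Untreated lines differed in 8 of the 9 genes, which is a share near that of all genes. The limma F test over the replicated lines, within batch, passed for all but IL33 (adjusted p = 0.209), beside 86.8% of all genes. The size of the differences was uneven, and lines lay at most 1.71-fold, 2.32-fold and 1.76-fold apart for IL1RL1 in batches 1 to 3. IL1A, the ligand that is active as a precursor and acts as an alarm signal from damaged cells, had the widest range in batches 1, 4 and 5. In batch 1 it was at 10.97 ± 0.37 in TYK-nu (SD, n = 3), 10.30 ± 0.10 in HeyA8, 9.72 ± 0.16 in HeyC2, 7.26 ± 0.17 in OVCA420, 4.83 ± 0.24 in PA-1, 4.59 ± 0.52 in OVCA429 and 3.78 ± 0.29 in A2780. The top and bottom of that order were 145-fold apart. In batch 2 IL1A ran from 8.45 ± 0.19 in DOV13 to 3.36 ± 0.27 in FU-OV-1, with A2008 at 6.04 ± 1.72. Without its culture 1, which stood apart, the other untreated cultures of A2008 averaged 6.72 (5.46 and 7.97). In batch 3 C13 (9.62 ± 0.09) and DOV13B (9.16 ± 0.18) lay well above OVCAR-8 (6.13 ± 0.15), OVCAR-10 (4.21 ± 0.55) and IGROV-1 (3.91 ± 0.29). Of 15 neighbouring lines in the 3 orders, 4 had overlapping cultures. In batches 4 and 5, with 1 culture each, IL1A was highest in SKOV-3 (9.95) and DOV13A (10.61) and lowest in OAW42 (3.06) and TOV-112D (3.09).

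IL1B, the secreted ligand cut by caspase-1, was high in fewer lines. HeyC2 (11.60 ± 0.11) and HeyA8 (9.01 ± 0.06) stood above the other 5 lines of batch 1, which lay between 4.47 and 5.70. Their names mark them as related lines, and they still differed by more than the spread of their cultures. In batch 3 C13 was at 9.59 ± 0.07 and DOV13B at 7.26 ± 0.07, with the other 3 lines between 4.53 and 4.76. In batch 2 the whole range was 2.08, from OV90 (4.49 ± 0.10) to OVCA433 (6.57 ± 0.18). Among single cultures of batch 5 IL1B was highest in Hey (8.90) and DOV13A (8.81), and 7 of 15 neighbours in batches 1 to 3 overlapped.

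IL18, a ligand made by many epithelia, was present in most lines and low in a few. It was at 10.39 ± 0.26 in IGROV-1 and 10.26 ± 0.27 in OVCAR-8, which overlapped, and at 2.99 ± 0.20 in OVCAR-10 of the same batch. In batch 1 it ran from 9.19 ± 0.21 in OVCA420 to 3.08 ± 0.16 in TYK-nu, the line with the highest IL1A. In batch 2 it ran from 9.92 ± 0.21 in A2008 to 3.89 ± 0.47 in CH1. IL33, an alarm ligand held in the nucleus, was near the bottom of the scale, between 2.45 and 3.01 in the replicated lines, and reached 4.72 in SKOV-8. IL33, IL1RN and IL1RL1 had a mean over all arrays in the lowest 25% of genes.

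**Figure D1:**
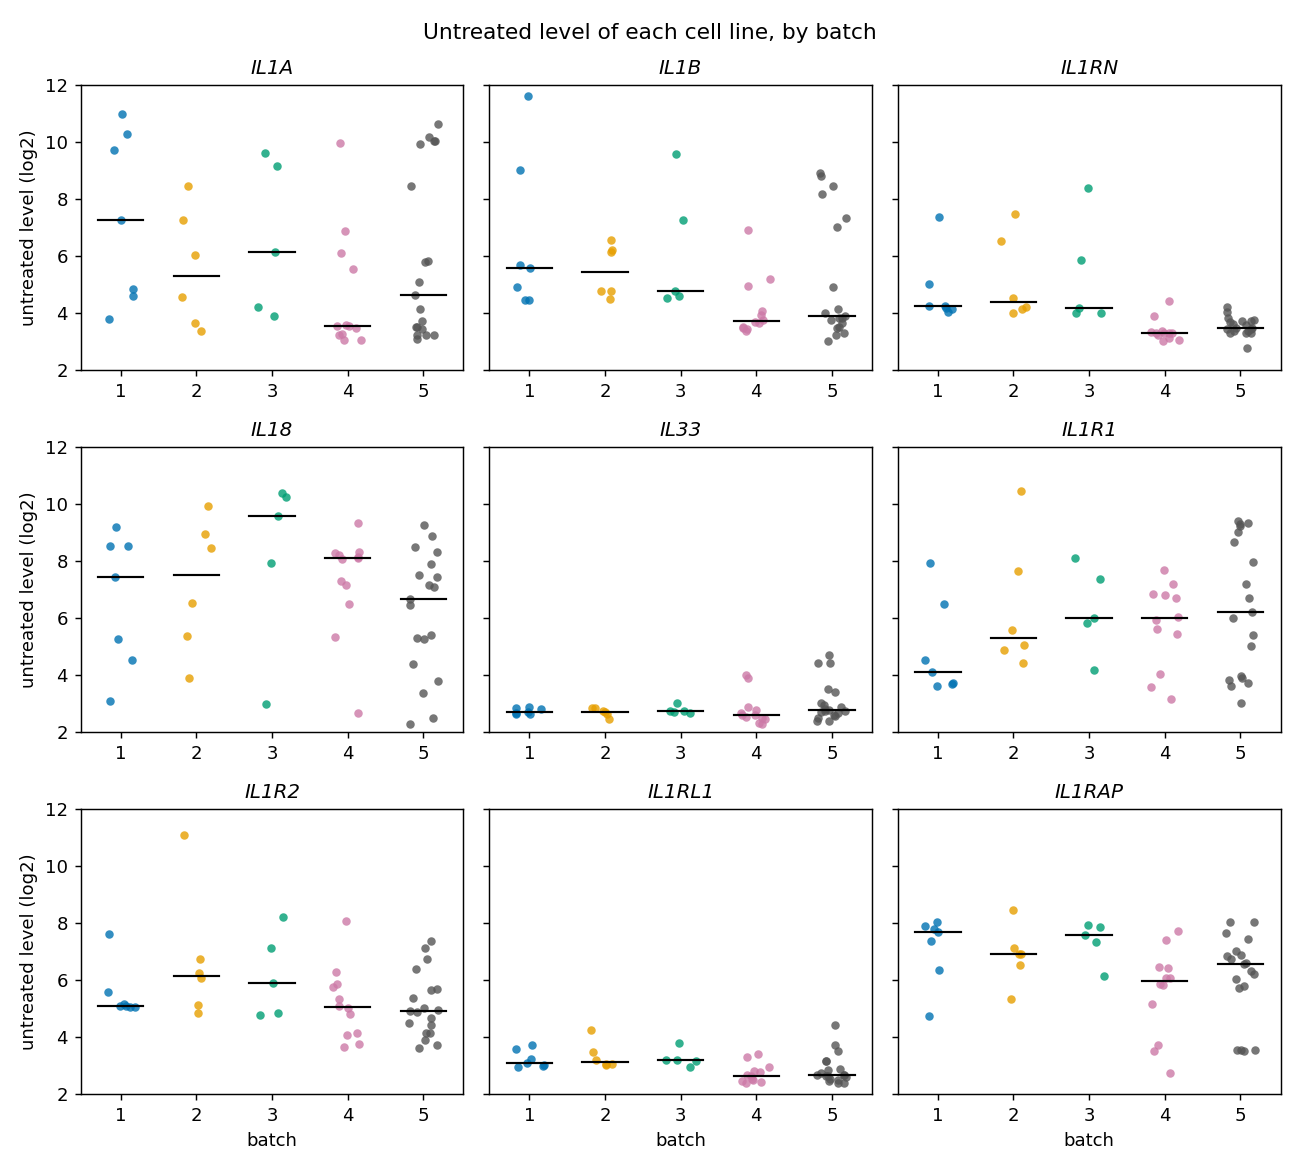
Untreated level (log2 intensity, vertical axis) of each member in each line, by batch (horizontal axis); a point is the mean of a line's untreated cultures and the bar is the batch median. IL1A spreads over more than 5 log2 units in every batch, whereas IL33 stays between 2.29 and 4.72; batches 4 and 5 are on a lower scale.

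IL1RN was low in most lines and high in a few. It was at 8.38 ± 0.02 in C13, 7.46 ± 0.30 in A2008, 7.37 ± 0.18 in OVCA420, 6.54 ± 0.21 in OVCA433, 5.85 ± 0.34 in OVCAR-8 and 5.01 ± 0.17 in OVCA429, and at or below 4.54 in the other replicated lines. IL1R1, the signalling receptor, was highest in FU-OV-1 (10.46 ± 0.03), followed by OVCAR-8 (8.09 ± 0.11) and OVCA429 (7.94 ± 0.04) in their own batches. Among lines with much IL1A it was at 3.68 ± 0.09 in HeyA8, 3.74 ± 0.31 in HeyC2, 3.62 ± 0.13 in TYK-nu and 4.20 ± 0.11 in C13, but at 6.02 ± 0.23 in DOV13B, 7.18 in OV56 and 7.67 in SKOV-3, its highest value in batch 4. Over the 46 lines its r was -0.18 with IL1A and -0.17 with IL1B. IL1R2 was also highest in FU-OV-1, at 11.10 ± 0.09, and its next level in that batch was 6.76 ± 0.13 in OVCA433. IL1RAP was between 6.15 and 8.46 in all replicated lines but A2780 (4.73 ± 0.06) and OV90 (5.35 ± 0.15). IL1RL1 was between 2.94 and 4.25 in the replicated lines, highest in OVCA433. Among the single cultures of batch 5 it ran from 2.38 in OVCA432 to 4.42 in SKOV-8.

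The untreated levels of IL1A and IL1B went together. Over the 46 lines, after centring on the batch mean, Pearson's r was 0.83, Spearman's rho 0.82, and r was 0.80 without the 2 lines with the most extreme IL1A. Of the 10 lines highest in each gene, 7 (70% of each list) were shared: SKOV-3, DOV13A, OV56, Hey, OVCAR-5, C13 and HeyA8. IL1R1 and IL1R2 had r = 0.49. These correlations describe lines that share batches and, in part, origin, and carry no test. Against the mean of epithelial minus mesenchymal genes, r was 0.56 for IL1RN, 0.56 for IL1R1 and 0.48 for IL1R2, and -0.29 for IL1A and -0.34 for IL1B. It was 0.33 for IL1RAP, 0.30 for the ligand gene IL18, 0.12 for IL1RL1 and -0.04 for IL33.

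Genes whose untreated pattern was closest to each member were found by Pearson's r over the same 46 lines. For IL1A they were ETS1 (0.81), FOSL1 (0.81) and CKAP2L (0.77), and for IL1B they were FOSL1 (0.83), AOX1 (0.79) and RAC2 (0.73). IL18 was closest to KCNK1 (0.79), SFN (0.78) and H3C11 (0.76). IL1RN was closest to KRT13 (0.82), ALDH3A1 (0.81) and FAM83F (0.80), although its Spearman values were lower (0.53, 0.45 and 0.61). IL1R1 was closest to SLPI (0.78), IL1RAP to CLDN1 (0.81) and IL1R2 to SGPP2 (0.73). The best values for IL33 (PDE7B, 0.65) and IL1RL1 (PLA2G7, 0.63) had Spearman's rho of 0.42 and 0.26.

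Cisplatin raised 3 of the 4 ligand genes and the gene of the interleukin 33 receptor chain over the 46 lines. By limma with Benjamini-Hochberg adjustment, 4 of 9 members rose and 0 fell, beside 4.98% of all genes that rose and 4.72% that fell; 6 members were higher and 1 lower at an unadjusted p under 0.05. The median change of the 9 members was 0.18, against -0.006 for all genes. The rises were small, from 1.24-fold to 1.38-fold, and varied from line to line.

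IL1A was higher by 0.46 ± 0.10 on the log2 scale (SE, n = 46, 1.38-fold, adjusted p = 0.00229) and was above the untreated value in 33 lines. Its changes ran from -0.88 in TOV-21G over a median of 0.25 to 2.67 in PEO1, where single cultures read 3.54 and 6.21. RMG-I (2.59), Caov-3 (1.71) and DOV13 (1.67) followed. IL1B rose by 0.35 ± 0.08 (1.28-fold, adjusted p = 0.00315, higher in 32 lines), between -0.65 in OVCAR-5 and 1.75 in DOV13, with a median of 0.20. HeyA8 (1.73), SKOV-3 (1.51) and DOV13B (1.47) were next. IL18 rose by 0.31 ± 0.08 (1.24-fold, adjusted p = 0.00722, higher in 35 lines), between -0.89 in Hey and 2.22 in OAW28, whose cultures read 4.40 and 6.62. For IL18 the median of 0.33 was close to the mean, so its change was spread over lines, while IL1A and IL1B had means pulled up by a few. IL33 was at 0.07 (95% interval -0.03 to 0.17, adjusted p = 0.439).

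IL1RL1 rose by 0.34 ± 0.10 (1.26-fold, adjusted p = 0.0263, higher in 31 lines), with a median of 0.16. The largest values were 3.61 in PEO1, from 3.29 to 6.90, 2.46 in UWB1.289, from 3.73 to 6.19, and 1.63 in C13. PEO1 thus had the largest change of both IL1A and IL1RL1. The IL1RL1 call was lost among the 18 replicated lines (0.16, adjusted p = 0.332), without batch 3 (0.33, adjusted p = 0.0532), without batch 5 (0.24, adjusted p = 0.250) and with batches weighted equally (0.28, adjusted p = 0.189).

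The antagonist and the other receptor genes did not pass over all lines. IL1RN was at 0.17 (95% interval 0.04 to 0.31, adjusted p = 0.101), between -0.69 in A2780cisR and 1.79 in OVCAR-8, with Hey (1.52) and SKOV-3 (1.14) next. IL1RAP was at 0.18 (0.03 to 0.32, adjusted p = 0.122), above 0 in 35 lines and at -1.51 in UWB1.289. It passed without UWB1.289 (0.21, adjusted p = 0.0269) and in 3 of 26 alternative settings. The values were 0.24 among the replicated lines (adjusted p = 0.0125) and 0.24 without batch 5 (adjusted p = 0.00970). Weighting lines by their number of cultures gave 0.21 (adjusted p = 0.0163). Among the replicated lines IL1RAP thus passed where IL1RL1 did not. IL1RN passed in 1 of 25 settings, the same weighting (0.20, adjusted p = 0.0425). IL1R1 was at -0.21 (-0.38 to -0.03, adjusted p = 0.136), below 0 in 29 lines, and lowest in OAW28 (-2.08, from 9.30 to 7.23) and OV56 (-1.81). IL1R2 was at 0.05 (-0.10 to 0.19, adjusted p = 0.787), between -1.42 in UWB1.289 and 1.19 in C13.

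**Figure D2:**
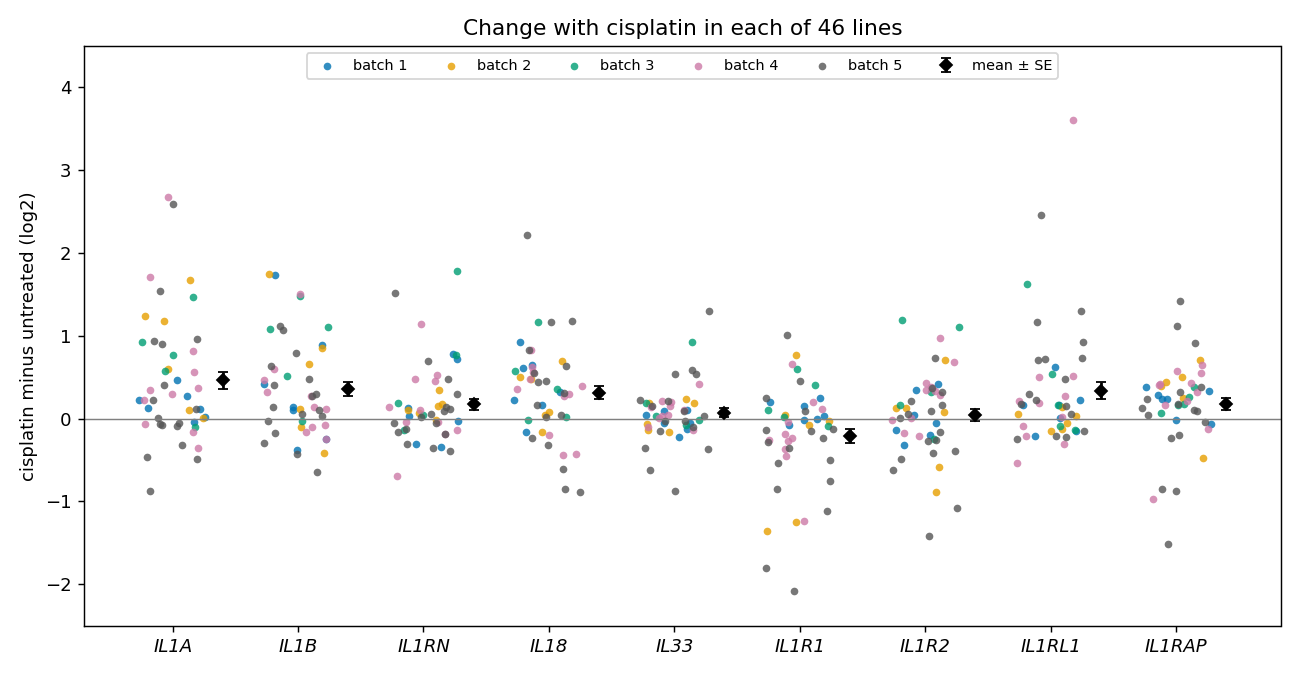
Treated minus untreated log2 level (vertical axis) of each member; a point is 1 of 46 lines, coloured by batch, and the diamond with its bar is the mean ± SE. IL18 has 35 points above 0, and the highest points of IL1A (2.67) and IL1RL1 (3.61) are both PEO1.

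The changes were compared between batches. Batch means of IL1A were 0.17 ± 0.17 (SD, 7 lines), 0.80 ± 0.67 (6 lines), 0.73 ± 0.57 (5 lines), 0.59 ± 0.89 (11 lines) and 0.31 ± 0.85 (17 lines) in batches 1 to 5. Those of IL1B were 0.38, 0.49, 0.83, 0.26 and 0.22, and those of IL18 were 0.39, 0.31, 0.42, 0.25 and 0.30, all above 0. IL1R1 was at 0.08 and 0.21 in batches 1 and 3 and at -0.32, -0.19 and -0.42 in batches 2, 4 and 5. By the limma F test 0 of 9 members differed between batches, as did 0% of all genes, and at an unadjusted p under 0.05 1 member, IL1R2, and 699 genes passed. In batches 4 and 5 alone 0 members passed (4 higher and 1 lower at an unadjusted p under 0.05), and 0 passed a test against a minimum change of 1.2-fold (1 higher at an unadjusted p under 0.05). OVCA433, measured in 2 batches, gave 1.23 and 1.27 for IL1A, 0.94 and 0.59 for IL1B, 0.68 and 0.77 for IL1R2 and 0.72 and 0.66 for IL1RAP. For IL18 it gave 0.71 in batch 2 and -0.10 in batch 4.

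IL1A and IL1B, so close in their untreated levels, were less alike in their changes. Both were above 0 in 23 lines, IL1A alone in 10, IL1B alone in 9 and neither in 4. Within batches r was 0.11 and rho 0.19 over 46 lines, and r was 0.25 without the 2 lines with the most extreme IL1A change. The difference between the correlations of level and of change was not tested. HeyA8 had 1.73 for IL1B and 0.13 for IL1A, while PEO1 had 2.67 for IL1A and -0.25 for IL1B. Changes of IL1RN and IL1R2 had r = 0.54 and rho 0.57 over the 46 lines, and r = 0.43 without 2 extreme lines. IL33 and IL1R2 had r = 0.47, and 0.50 without 2 extreme lines. For IL1A and IL18 these values were 0.37 and 0.46, and for IL1A and IL1RL1 they were 0.44 and 0.17.

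**Figure D3:**
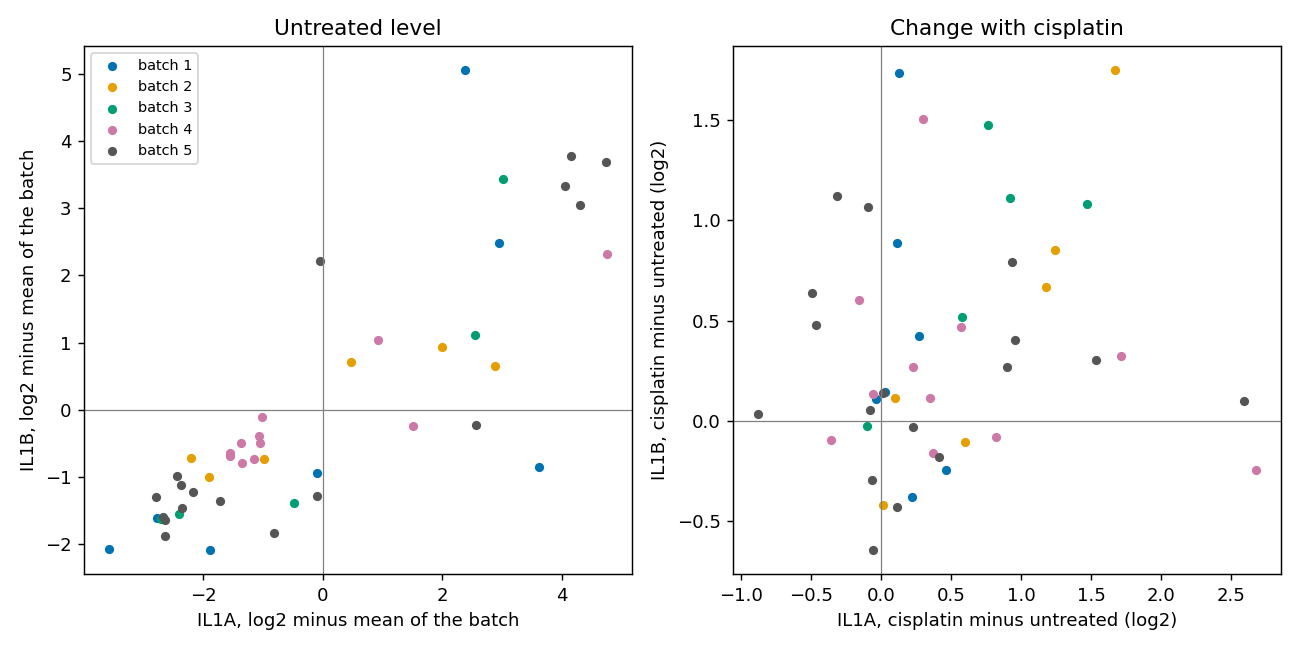
IL1B (vertical axis) against IL1A (horizontal axis) in 46 lines, as untreated log2 level minus the batch mean on the left and as log2 change with cisplatin on the right; colours are batches. On the left the points follow a rising band (r = 0.83), and on the right they scatter (r = 0.11 after centring within batch).

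The replicated lines showed where single genes changed. Within these 18 lines 20 of the changes of a member in a line passed the limma test, 17 higher and 3 lower. That is 12.3% of 162, against 8.23% of all changes of a gene in a line. As background by line, the share of all genes past the threshold, in either direction, was 13.7% in HeyA8, 5.13% in HeyC2, 3.53% in A2780, 11.5% in OVCA420, 3.90% in OVCA429, 22.8% in PA-1 and 0.0760% in TYK-nu. It was 1.98% in CH1, 2.92% in OV90, 27.8% in FU-OV-1, 5.15% in A2008, 3.31% in DOV13 and 2.68% in OVCA433. In batch 3 it was 4.18% in OVCAR-10, 1.46% in DOV13B, 17.7% in C13, 6.96% in IGROV-1 and 13.4% in OVCAR-8. C13 had 6 of 9 members higher and OVCAR-8 had 3, while PA-1, with many changed genes, had 0. The response itself differed between lines for 7 members, all but IL1A and IL18, beside 51.0% of all genes.

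IL1B rose in 4 lines. HeyA8 read 9.03, 8.95 and 9.06 untreated and 10.67 and 10.83 treated (1.73 ± 0.40, SE, adjusted p = 0.000815). DOV13 read 6.17, 6.22 and 6.03 untreated and 7.55, 7.98 and 8.14 treated (1.75 ± 0.35, adjusted p = 0.000700). In both, every treated culture lay above every untreated culture. DOV13B went from 7.34, 7.22 and 7.23 to 8.89, 8.90 and 8.42 (1.47, adjusted p = 0.0106), and C13 from 9.54, 9.56 and 9.67 to 10.71, 10.83 and 10.56 (1.11, adjusted p = 0.0201). Again the arms did not overlap. Separate arms also occurred without a call, with IL1B higher in HeyC2 (0.42), OVCA420 (0.89), OVCA433 (0.94) and OVCAR-8 (0.52). It was lower, also with separate arms and no call, in OVCA429 (-0.24), PA-1 (-0.38) and CH1 (-0.42). The share of all genes with separate arms was not counted, here or for the other members. The 4 lines with a call had IL1B above the lowest lines of their batch before treatment, but so did lines without a call. HeyC2, the highest of batch 1 (11.60), changed by 0.42 (limma adjusted p = 0.618). In batch 2, untreated OVCA433 (6.57) and A2008 (6.21) averaged above DOV13 (6.14) and had no call with all cultures kept.

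IL1RN rose in 4 lines, of which C13 was also among the 4 lines of IL1B. OVCAR-8 had the largest change, from 6.17, 5.89 and 5.50 to 7.54, 7.58 and 7.80 (1.79 ± 0.18, adjusted p = 2.75e-12). In OVCA420 it went from 7.55, 7.38 and 7.19 to 8.31, 8.31 and 7.84 (0.78, adjusted p = 0.00129; 0.94 without the culture that stood apart). In C13 it changed by 0.76 and in OVCA429 by 0.72. The arms did not overlap in any of the 4, nor in OV90, which had no call (0.11). The 4 lines with a call were the 2 highest in untreated IL1RN in batch 1 and the 2 highest in batch 3. A2008 (0.35) and OVCA433 (0.02), the highest of batch 2, had no call.

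IL1RL1 rose most in C13, from 3.48, 3.98 and 3.87 to 4.87, 5.72 and 5.62 (1.63 ± 0.15, adjusted p = 1.15e-13). It also rose in OVCA429 (0.62) and OVCAR-8 (0.54). IL33, its ligand, passed in 1 of 18 lines, C13, from 3.03, 2.84 and 3.15 to 3.79, 3.96 and 4.06 (0.93 ± 0.16, adjusted p = 1.02e-05). IL1R2 rose in C13, from 7.30, 6.82 and 7.26 to 8.08, 8.57 and 8.30 (1.19, adjusted p = 0.00344), and in OVCAR-8 by 1.11. IL1RAP rose in OVCA433 (0.72, adjusted p = 0.000309), A2008 (0.50; 0.46 without its untreated culture 1, adjusted p = 0.0322) and C13 (0.38), and fell by 0.48 in FU-OV-1.

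IL1R1 fell in 2 lines, which differ in how firmly. FU-OV-1, the line with the highest IL1R1, went from 10.50, 10.44 and 10.44 to 9.23, 9.33 and 9.08, a fall with no overlap (-1.25 ± 0.32, adjusted p = 0.00132). In A2008 the untreated cultures read 7.96, 4.16 and 4.66 and the treated cultures 4.20, 4.31 and 4.19, so the arms overlapped. That call (-1.36, adjusted p = 0.00400) rested on untreated culture 1, which stood apart. Without the cultures numbered 1 the value was -0.16 (adjusted p = 0.824). The same culture had IL1R2 at 8.57, against 5.33 and 4.80 in the other untreated cultures.

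**Figure D4:**
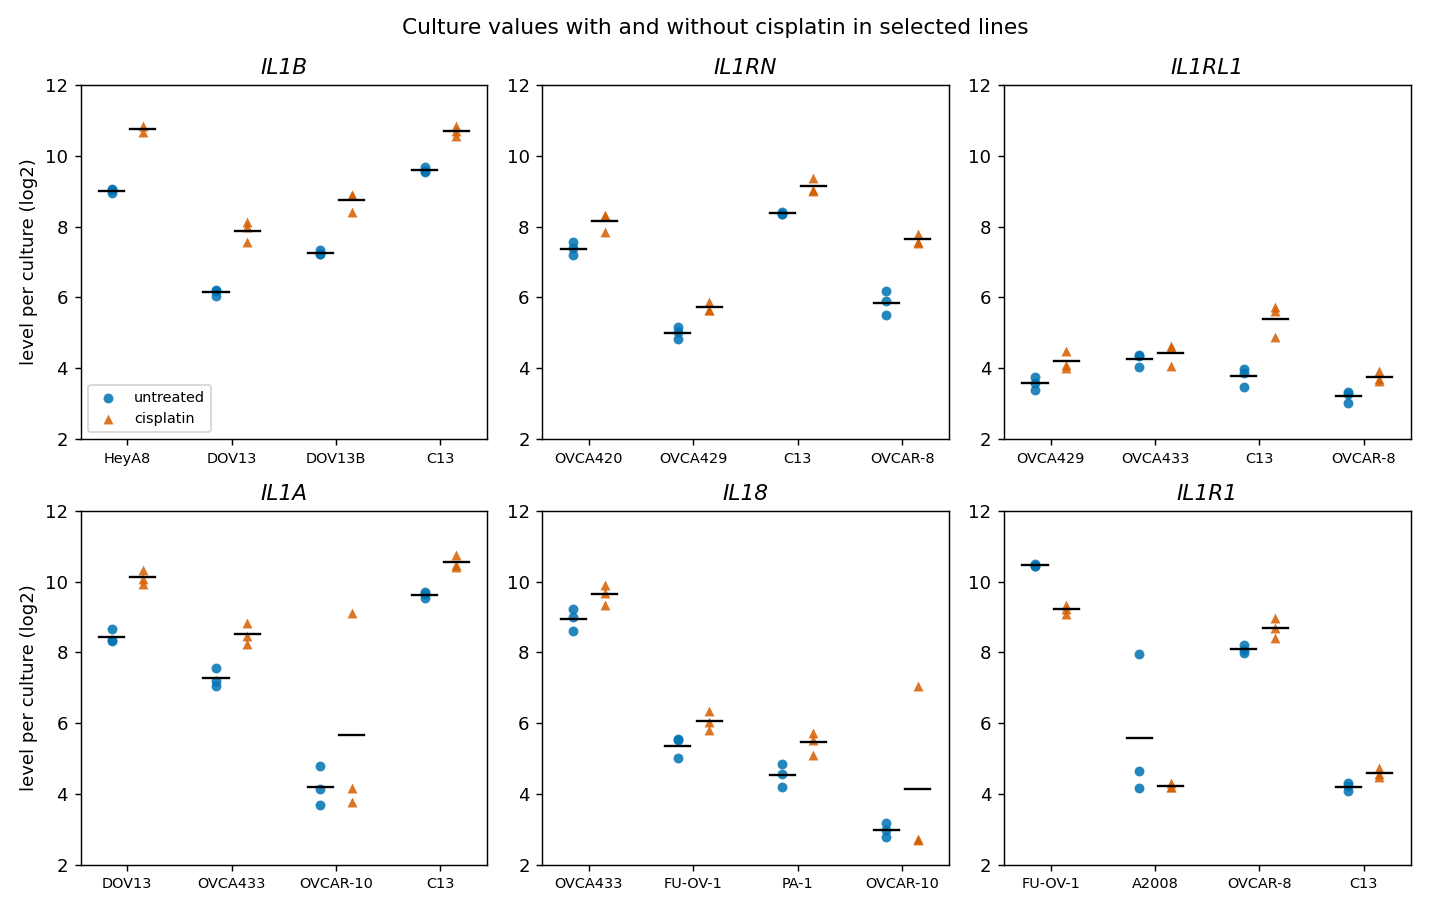
Log2 level of single cultures (vertical axis) for 6 members in selected lines of batches 1 to 3, untreated (circles) and with cisplatin (triangles); bars are arm means. IL1B arms are separate in all 4 lines shown, while IL1A and IL18 in OVCAR-10 and IL1R1 in A2008 each have 1 culture far from the rest.

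IL1A and IL18 passed in 0 of 18 lines, with 4 and 2 lines higher at an unadjusted limma p under 0.05 and 0 lower. Their pooled spread between cultures was the widest of the members, 0.66 for IL1A and 0.46 for IL18, and held the OVCAR-10 culture that stood apart. For IL1A the cultures of A2008 also lay far apart (SD 1.72 untreated and 1.51 treated). The pooled spread of IL1A was 0.45 without treated culture 1 of OVCAR-10 and treated culture 3 of OVCA420. It was 0.26 when A2008 was left out as well. In OVCAR-10 the treated cultures read 9.10, 3.76 and 4.16 for IL1A, 7.56, 4.55 and 4.94 for IL1B and 7.04, 2.70 and 2.72 for IL18. The first culture was high in all 3, and the other two lay within or near the untreated range. Its line changes of 1.47, 1.08 and 1.16 became -0.24, 0.14 and -0.28 without that culture.

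Leaving out treated culture 1 of OVCAR-10 and treated culture 3 of OVCA420 raised the count from 20 to 34, with all 20 kept, or 21.0% of 162 against 9.04% of all changes of a gene in a line. IL18 then rose in 6 lines: PA-1 (0.92, adjusted p = 0.000113), FU-OV-1 (0.70), OVCA433 (0.71), A2780 (0.65), HeyC2 (0.61) and IGROV-1 (0.58). IL1A rose in DOV13 (1.67, adjusted p = 0.00195), OVCA433 (1.23) and A2008 (1.18), although the arms of A2008 overlapped. The A2008 value was 0.50 (adjusted p = 0.610) without its untreated culture 1, and the sign turned without both of its cultures numbered 1 (-0.37, adjusted p = 0.708). IL1B passed in addition in OVCA420 (0.98) and OVCA433 (0.94), and IL1RAP in HeyC2 (0.38), PA-1 (0.33) and DOV13 (0.44). The response then differed between lines for IL1A (adjusted p = 0.0422) and IL18 (adjusted p = 0.000329) too, beside 53.8% of all genes. Leaving out these cultures was chosen after seeing the data. Without all 3 cultures that stood apart 38 passed (9.24% of all changes), with 19 of the 20 kept and IL1R1 in A2008 lost, and without the 2 treated cultures and all of A2008 41 of 153 passed (10.1% of all changes). The mean changes over all 46 lines without those 2 cultures were 0.43 for IL1A, 0.34 for IL1B and 0.28 for IL18, and the same number of members, 4, passed.

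**Figure D5:**
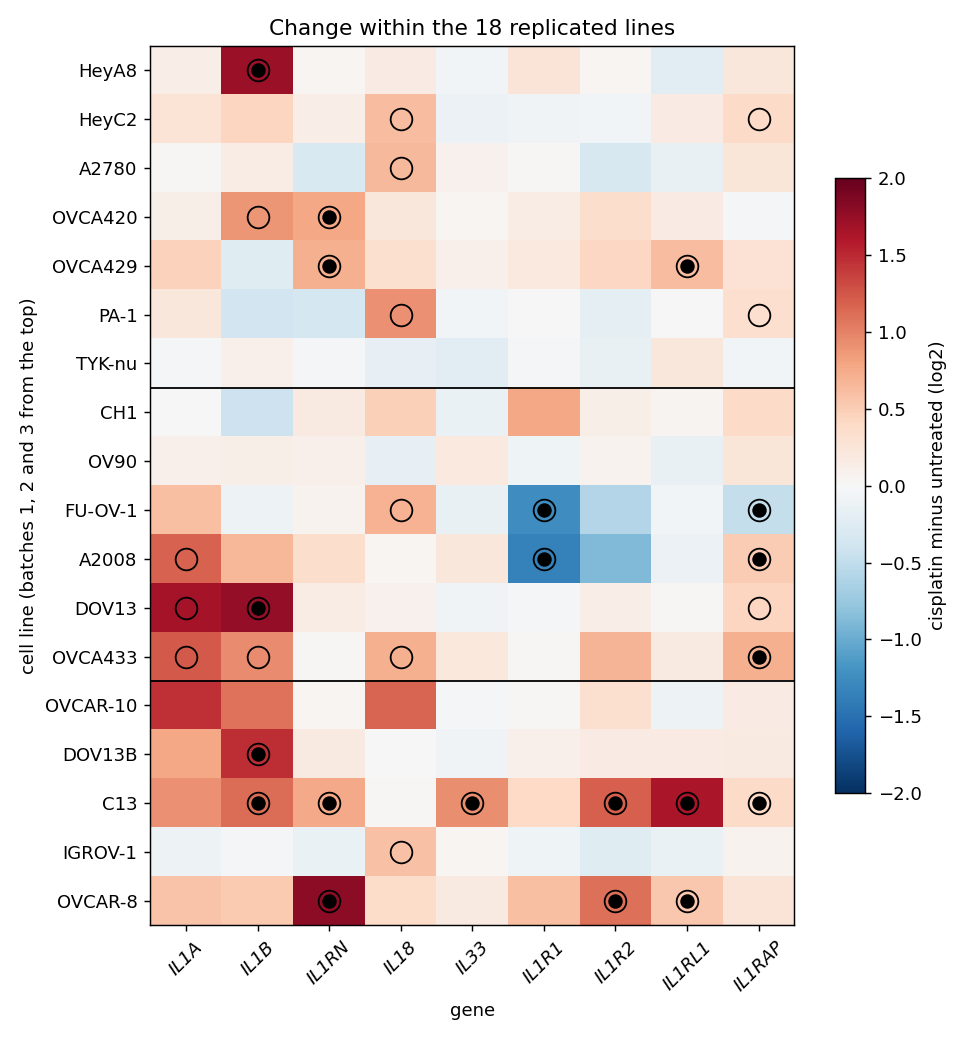
Log2 change with cisplatin (colour, from -2 to 2) of each member (columns) in the 18 replicated lines (rows, batches divided by lines). Filled dots mark the 20 changes that passed, and open rings mark the 34 that passed without the 2 treated cultures that stood apart; C13 holds 6 filled dots and the IL18 column holds rings only.

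The other genes of the pathway were taken from lists of the family, its signalling chain, its processing and its targets. Of 13 further ligand and receptor genes 0 rose or fell by limma, beside 4.98% of all genes that rose and 4.72% that fell. At an unadjusted limma p under 0.05, 1 of the 13 was higher. Closest to passing were IL18BP, which binds and blocks interleukin 18 (0.11, adjusted p = 0.0686), and SIGIRR, an inhibitory receptor (-0.08, adjusted p = 0.277). Of 16 signalling genes RELA, a subunit of NF-kB, rose by 0.17 ± 0.06 (adjusted p = 0.0490), and the median of the list was 0.06. Of 13 processing genes CASP4, an inflammatory caspase, rose by 0.22 ± 0.06 (adjusted p = 0.0217, higher in 39 lines), with a list median of -0.03. CASP4 was also among the 3 genes closest to IL1RAP in untreated level (r = 0.73).

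Of 20 genes known to respond to interleukin 1, 13 rose and 0 fell, beside 4.98% of all genes that rose and 4.72% that fell. Their median change was 0.28, against -0.006 over all genes. The list was chosen with earlier results of these data known. Many of these genes respond to other signals through NF-kB as well. The largest changes were those of the chemokine CXCL8 (0.85 ± 0.16), the NF-kB inhibitor TNFAIP3 (0.76 ± 0.14), the cytokine IL6 (0.75 ± 0.17) and the chemokine CCL20 (0.68 ± 0.13). These lines were the same as those of the members, so both sets of changes share their cultures.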

How the data were processed

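Cultures of 46 lines were profiled on 171 arrays. Averaging 4 repeat arrays with the culture they repeat gave 85 untreated and 82 treated cultures. The deposited table holds log2 values of 33297 probe sets. The authors used RMA, as the submitters' processing notes state; its version is not given in the sources used here. This method equalises probe distributions between the arrays it is run on, so a change in total RNA cannot be seen. Precision is limited by the number of arrays.

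The platform annotation gave 1 symbol for 19460 probe sets, several for 1754 and did not list 12083. Symbols of 19429 were updated through RefSeq gene identifiers. The probe set with the highest mean was kept for each of 18417 genes. In R 4.3.3 with limma 3.58.1, differences within line and batch were tested against 0 over 46 lines (165 cultures), and a group-means model with 71 residual degrees of freedom gave the changes in 18 replicated lines. Adjustment was by Benjamini-Hochberg over all genes at 0.05.

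All members were named. Of each pathway list, up to 4 genes past the threshold by size were named, or the 2 with the lowest p where none passed, and for likeness the 3 highest correlations. Members, lists and tests were chosen with earlier results of these data known. Alternatives changed scaling, probe sets, dim genes, batches, weights, replicates and the minimum change. Replicate numbers did not pair cultures: same-numbered cultures of the arms had deviations correlated between -0.50 and 0.42 over 53 pairs, with 7 above 0.1. The steps were tested on simulated data. Figures were drawn with matplotlib.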

Additional observations from a re-analysis of the deposited data

Results flagged for a closer look

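IL33 changed by 0.93 in C13, which lay far from the other lines of batch 3 among 5 lines. This was 1 case in 27 groups of a member and a batch examined for a line far from the rest, and chance marks about 1 in 20 groups.

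The change with cisplatin differed between the 18 replicated lines by the limma F test for 7 members. The adjusted p was 0.000169 for IL1B, 3.72e-09 for IL1RN, 0.0105 for IL33, 0.00505 for IL1R1, 0.00278 for IL1R2, 2.80e-09 for IL1RL1 and 0.000247 for IL1RAP. Of all genes, 51.0% passed the same test.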

How the results depend on the processing

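The 4 members called over all lines became 0 in batches 4 and 5 only, 0 in each of batches 1, 2, 3, 4 and 5 alone and 0 with a minimum change of 1.2-fold. At an unadjusted limma p under 0.05, between 1 and 6 members were higher in these batch subsets. With 46 lines each left out in turn, IL1A, IL1B, IL18 and IL1RL1 kept their calls, with IL1RL1 at adjusted p between 0.0184 and 0.0435. IL1R2, not called, was at -0.00400 in batches 4 and 5 only, -0.011 without batch 3, -0.028 without batch 4, -0.076 in batch 2 alone and -0.19 in batch 5 alone. IL33 was at -0.030 and IL1R1 at 0.075 in batch 1 alone, IL1R1 at 0.21 in batch 3 alone, and IL1RL1 at -0.011 in batch 2 alone. The count of members whose response differed between lines was 7 and fell to 4 when the lowest 25% of genes, which holds 3 members, was left out; it was 4 to 8 without replicate 1, 2 or 3. The 20 changes within lines became 12 to 26 without replicates 1, 2 or 3, 34 without the 2 cultures that stood apart, 38 without these and untreated culture 1 of A2008, 41 without these and all of A2008 and 6 with the 1.2-fold minimum. With the replicate block the counts were 4, 20 and 7, and it changed no count of calls. Weighting lines by their number of cultures called 6 members, with IL1RN and IL1RAP added. The replicated lines alone called 4 members, with IL1RAP in place of IL1RL1. The batch subsets held fewer lines, and the cause of these shifts was not tested. Signal near the bottom of the scale limits IL33, IL1RL1 and IL1RN, and also IL1A and IL1B in the lines where these were low.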
